A study of Sus scrofa with 32 samples.

Results

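The transcripts described here encode the nuclear subunits of the mitochondrial respiratory chain and of ATP synthase, with a few proteins that help to build them. Members were all probe sets annotated to a single symbol beginning with NDUFA, NDUFB, NDUFC, NDUFS, NDUFV, UQCR, ATP5, COX4, COX5, COX6, COX7 or COX8, or to SDHA, SDHB, SDHC, SDHD or CYC1. Of the 24123 probe sets on the array, 80 met this rule, and the brightest probe set of each gene gave 63 members. By complex these were 32 genes of complex I, 4 of complex II, 2 of complex III, 8 of complex IV and 13 of complex V. The remaining 4 are not subunits: NDUFAF1, NDUFAF2 and NDUFAF3 are assembly factors of complex I, and ATP5S is a coupling factor of ATP synthase. NDUFA4 was counted with complex IV, where its protein belongs despite its name. The symbols are those of the array, and CYC1, the COX4 genes and COX5A are not among the named members.

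RNA came from the livers of fetal Pietrain pigs and was hybridised to a porcine expression array, with 1 array per sample and 32 arrays in all. The gilts that carried the fetuses were fed a gestation diet enriched in methylating micronutrients (methyl diet) or a control diet. Fetuses were taken at 35, 63 or 91 days post coitum (dpc). Each diet gave 5 arrays at the youngest age, 6 at the middle age and 5 at the oldest. No label gives the dam, litter, fetal sex or batch of an array, so the p-values measure only the spread between these arrays, and littermates would make them too small.

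Complex I, NADH dehydrogenase, passes electrons from NADH to ubiquinone, and complex II, succinate dehydrogenase, passes them on from succinate. Complex III hands the electrons to cytochrome c, and complex IV, cytochrome c oxidase, hands them to oxygen. Complexes I, III and IV pump protons out of the mitochondrial matrix, and complex V, ATP synthase, lets the protons return and makes ATP. Some subunits of these complexes are encoded by mitochondrial DNA and were not analysed here. The fetal liver is at once a growing metabolic organ and a site of blood formation, and developing red cells hold mitochondria until late in their maturation.

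All values are log2 signals as deposited, so a difference of 1 is a doubling, and levels of different probe sets are not set against each other. The number of arrays limits the precision. A member was called at an adjusted p under 0.05 (limma, Benjamini-Hochberg), the adjustment running across all 15327 probe sets that were tested. All 63 members lay above the 40th percentile of the array on all 32 arrays. The arrays fell into 18 with a gap of 1.39 to 1.83 between the spike-in controls bioC and bioB (high-gap) and 14 with a gap of 0.16 to 0.39 (low-gap). Both kinds were present in every group of diet and age: 3 high-gap with 2 low-gap arrays at the youngest and oldest age, 3 with 3 at 63 dpc. In a fit with the gap as a term, 9 members were lower and 7 higher in high-gap arrays at adjusted p under 0.05, and 24.1% of all probe sets tested differed between the gap groups. NDUFS6, an accessory subunit of complex I, was lower by 0.90 in high-gap arrays, and UQCRB was higher there by 0.40. Methyl array 1 at 35 dpc stood apart in 6 members, so values without it are given where it decides a call. In this whole tissue, fewer cells of a type and less RNA per cell cannot be told apart.

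The comparison of gestational ages asked how these transcripts moved as the liver grew, averaged over both diets. From 35 to 63 dpc, 46 of the 63 members fell and 3 rose, while 14 were not called. Of all probe sets tested, 28% were called lower and 32.5% higher in this interval. The median difference of the members was -0.51, against 0.05 over all probe sets. In 20 of the 63 members every array at 63 dpc lay below every array at 35 dpc, against 4.99% of all probe sets. From 63 to 91 dpc, 46 members fell and 1 rose, where 29% of all probe sets were called lower and 29.5% higher. The median difference was -0.40 for the members and -0.03 for all probe sets. In 11 of the 63 members every array at 91 dpc lay below every array at 63 dpc, against 6.94% of all probe sets. The 63 dpc arrays enter both intervals, so the intervals are not independent of each other. In low-gap arrays alone, 28 members were called lower in the later interval and none higher. That fit used 14 arrays, and the median of the members was -0.34 there, against -0.05 for all probe sets. The share of all probe sets called in that fit is not given, so fewer calls cannot be told apart from fewer arrays.

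Over the whole span, 91 against 35 dpc, 51 members were lower and 4 higher (39.1% and 40.8% of all probe sets). The median difference was -0.93 for the members and 0 for all probe sets. In 41 members every array at 91 dpc lay below every array at 35 dpc, against 18.7% of all probe sets. NDUFA5 was the member in which every array at 91 dpc lay above every array at 35 dpc, against 21.4% of all probe sets. The separation was very narrow, as its highest array at 35 dpc and its lowest at 91 dpc both round to 7.57.

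When each member was centred on its mean over the 32 arrays, the average of the 63 was 0.42 ± 0.10 at 35 dpc (SD, n = 10), -0.01 ± 0.12 at 63 dpc (n = 12) and -0.41 ± 0.11 at 91 dpc (n = 10). The single arrays ran from 0.23 to 0.61 at 35 dpc, from -0.27 to 0.21 at 63 dpc and from -0.56 to -0.27 at 91 dpc. The ranges at 35 and 63 dpc did not overlap, and those at 63 and 91 dpc met at their edge.

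**Figure D1:**
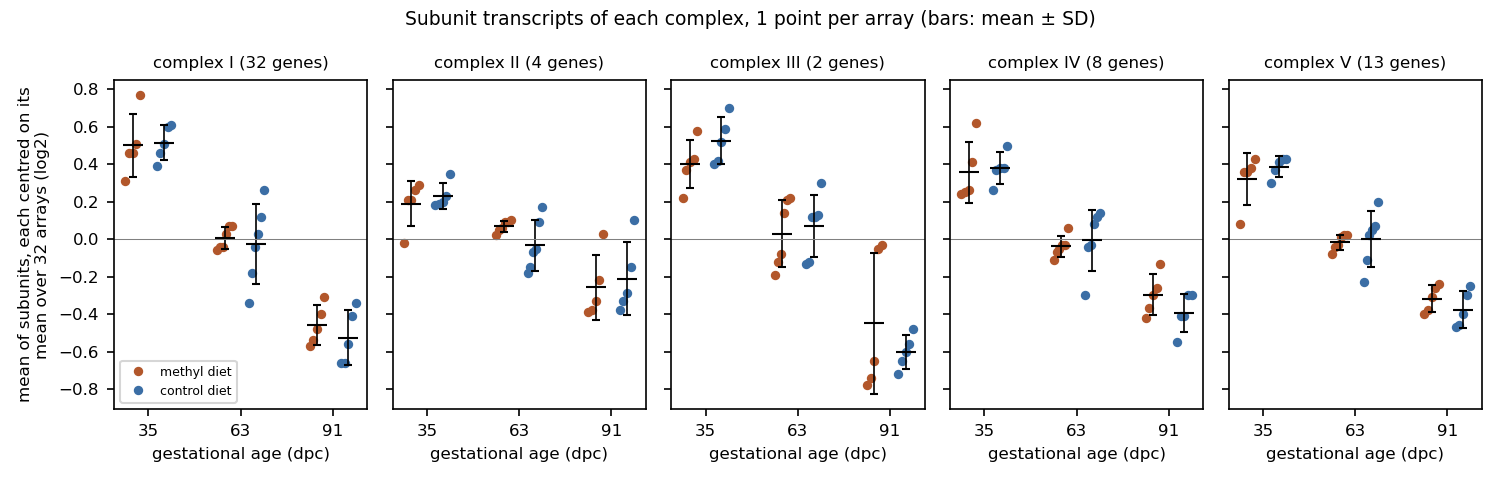
Mean of the subunits of each complex on each array, every gene centred on its mean over the 32 arrays (log2), by gestational age in days post coitum; orange points are methyl arrays, blue points control arrays, and bars give the mean ± SD of a group. Over both diets complex I averages 0.51 ± 0.13 at 35 dpc and -0.49 ± 0.13 at 91 dpc, complex III 0.46 ± 0.14 and -0.53 ± 0.27, and complex II 0.21 ± 0.10 and -0.23 ± 0.17.

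Complex I had the most members. Of its 32 subunits, 27 fell from 35 to 63 dpc and 23 from 63 to 91 dpc, with median differences of -0.61 and -0.50. At 91 against 35 dpc the median was -1.21, with 27 lower and 3 higher. This median was -1.36 over the high-gap arrays alone and -1.05 over the low-gap arrays alone.

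Among the core subunits, NDUFV1, the subunit that binds NADH and flavin, had a lowest, median and highest value of 10.70, 10.92 and 11.66 at 35 dpc. The same values were 9.66, 10.16 and 10.5 at 63 dpc, while at 91 dpc they were 9.11, 9.43 and 9.60. The 3 ages did not overlap, and NDUFV1 fell by 0.84 ± 0.10 (SE, adjusted p = 6.52e-08) and then by 0.73 ± 0.10 (adjusted p = 5.9e-07).

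NDUFS3, a core subunit of the arm that reaches into the matrix, ran from 11.57 to 12.12 at 35 dpc with a median of 11.86. It ran from 10.68 to 11.48 at 63 dpc (median 11.09) and from 9.74 to 10.33 at 91 dpc (median 10.11). Again no array of an age reached the range of the next. The falls were 0.73 ± 0.09 (adjusted p = 3e-08) and 1.03 ± 0.09 (adjusted p = 2.88e-11), and the net fold was 3.40-fold lower at 91 dpc than at 35 dpc.

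The core subunits NDUFS7 and NDUFV2, which hold iron-sulfur clusters, were also called lower in both intervals. NDUFS1, the largest core subunit and a holder of several iron-sulfur clusters, moved the other way. Its lowest, median and highest values were 7.60, 8.22 and 8.77 at 35 dpc and 8.5, 8.59 and 8.78 at 63 dpc, while at 91 dpc they were 8.42, 8.70 and 8.95. The ages overlapped, and the 35 dpc arrays were spread far more than the others. NDUFS1 rose by 0.45 ± 0.11 in the first interval (adjusted p = 0.000526), and the second gave 0.09 ± 0.11 (adjusted p = 0.498). In low-gap arrays alone the first difference was 0.354 and was not called.

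The NDUFA series, accessory subunits that surround the core, held 11 members that fell and 1 that rose in the first interval, and 9 that fell in the second. NDUFA7 had values of 10.30 to 11.18 at 35 dpc, 8.95 to 10.13 at 63 dpc and 8.33 to 8.99 at 91 dpc, with medians of 10.53, 9.74 and 8.65. The lowest array at 63 dpc just overlapped the highest at 91 dpc. It fell by 0.87 ± 0.12 (adjusted p = 4.47e-07) and by 1.05 ± 0.12 (adjusted p = 1.39e-08).

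NDUFA9, which lies at the join of the membrane and matrix arms, fell by 0.95 ± 0.10 and 0.71 ± 0.10 (adjusted p = 4.7e-09 and 4.08e-07). NDUFA1, a small membrane subunit, averaged 13.81 ± 0.16 at 35 dpc, 13.30 ± 0.16 at 63 dpc and 12.25 ± 0.22 at 91 dpc (SD). Its later fall of 1.05 ± 0.07 (adjusted p = 1.79e-12) followed an earlier fall of 0.51 ± 0.07 (adjusted p = 1.25e-06). The brightest NDUFA1 probe set may match several transcripts. A dimmer probe set for NDUFA1 also fell in both intervals, by 0.43 and 0.22, a smaller later fall. NDUFAB1, the mitochondrial acyl carrier protein, is also a subunit of complex I and fell by 0.77 and 0.59.

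NDUFA5, an accessory subunit of the matrix arm, had the largest rise among the members. Its lowest, median and highest values were 5.69, 6.80 and 7.57 at 35 dpc and 6.81, 7.89 and 8.40 at 63 dpc, while at 91 dpc they were 7.57, 8.02 and 8.61. It rose by 0.94 ± 0.21 in the first interval (adjusted p = 0.00034), and the second gave 0.29 ± 0.21 (adjusted p = 0.246). NDUFA5 also varied widely within a group, with 0.79 SD among the control arrays at 35 dpc, and was higher by 0.45 in high-gap arrays. The first difference was 0.862 in low-gap arrays alone, where it was not called.

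The NDUFB series belongs to the far end of the membrane arm, and 9 of its 10 members fell in each interval. NDUFB7 had the largest falls of all members. Its values ran from 10.78 to 11.88 at 35 dpc, from 9.40 to 10.66 at 63 dpc and from 8.47 to 9.29 at 91 dpc, with medians of 11.11, 10.03 and 8.98. The 3 ages were fully apart. It fell by 1.06 ± 0.13 (adjusted p = 5.83e-08) and by 1.13 ± 0.13 (adjusted p = 1.39e-08), and was 4.56-fold lower at 91 dpc than at 35 dpc.

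NDUFB3, from the same series, was the member called higher in the second interval. It averaged 10.48 ± 0.25 at 35 dpc, 10.66 ± 0.19 at 63 dpc and 10.91 ± 0.20 at 91 dpc (SD), with overlap at each step. The differences were 0.18 ± 0.09 (adjusted p = 0.0913) and 0.25 ± 0.09 (adjusted p = 0.0226). The later call was lost without control array 3 or without methyl array 1 at 91 dpc, at differences of 0.212 to 0.220, and in low-gap arrays alone, at 0.075. NDUFB3 is measured by a probe set that may match several transcripts, and its dimmer probe set gave 0.16 and 0.17, neither called.

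NDUFC1 and NDUFC2, a pair of small membrane subunits, were called in neither interval, with differences between 0.01 and 0.11. NDUFC2 averaged 12.23 ± 0.13 at 35 dpc, 12.28 ± 0.13 at 63 dpc and 12.29 ± 0.20 at 91 dpc (SD). NDUFS6 fell from 35 to 63 dpc by 0.58 ± 0.24 (adjusted p = 0.04), a call that was lost in 13 of the 32 fits that left out a single array.

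**Figure D2:**
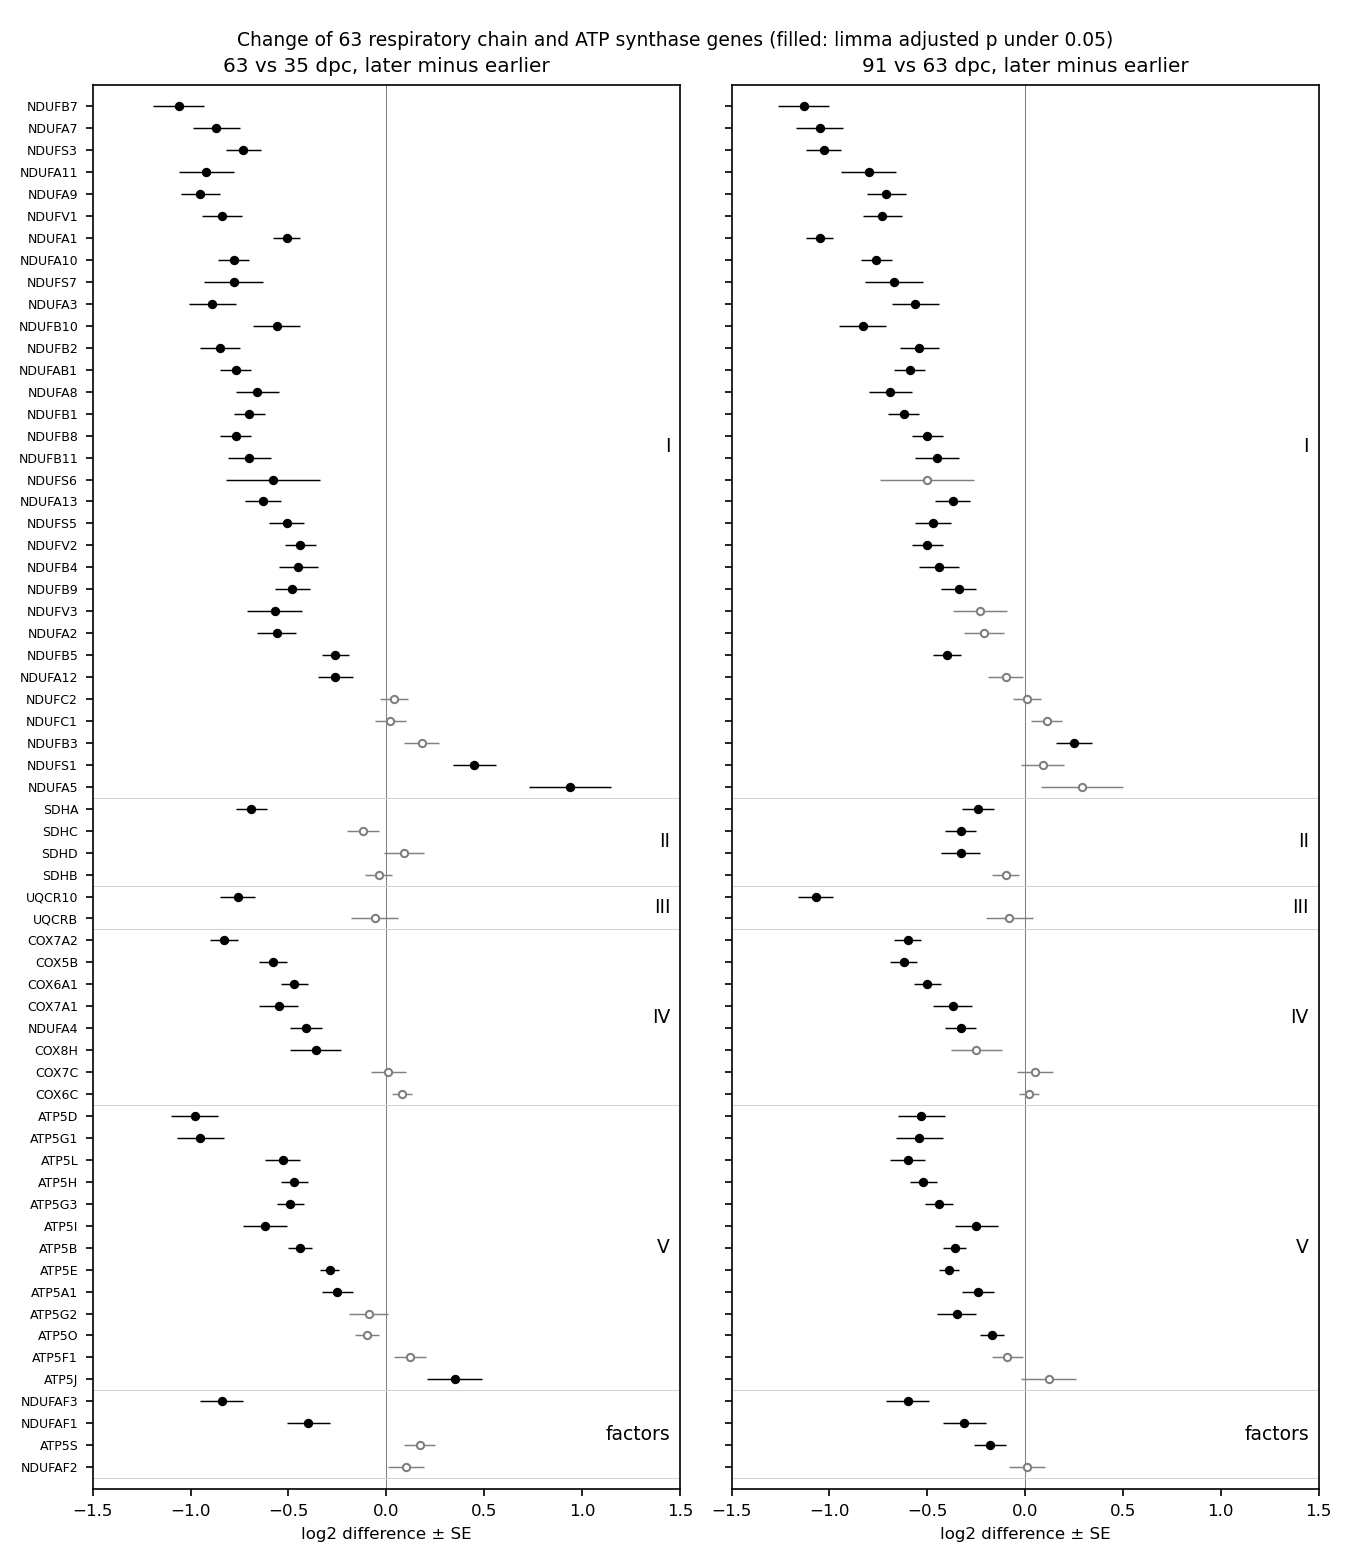
Log2 difference of each of the 63 genes, later minus earlier age, with its standard error, from 35 to 63 dpc (left) and from 63 to 91 dpc (right), grouped by complex and sorted by the difference between 91 and 35 dpc; filled points have a limma adjusted p under 0.05. Most points lie left of 0 in both panels, NDUFB7 is the farthest left, and NDUFA5, NDUFS1 and ATP5J are filled on the right in the first interval.

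The 3 assembly factors of complex I did not move as a unit. NDUFAF3, which helps to join early parts of the matrix and membrane arms, averaged 10.23 ± 0.25 at 35 dpc, 9.40 ± 0.28 at 63 dpc and 8.79 ± 0.21 at 91 dpc (SD). It fell by 0.84 ± 0.11 (adjusted p = 3.14e-07) and 0.60 ± 0.11 (adjusted p = 3.67e-05), the second call being lost in low-gap arrays alone (-0.511).

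NDUFAF1, a factor for the membrane arm, fell by 0.40 ± 0.11 (adjusted p = 0.00323) and 0.31 ± 0.11 (adjusted p = 0.0218). The first difference was -0.082 in low-gap arrays alone, and the second call was lost without methyl array 1 at 91 dpc. A dimmer probe set for NDUFAF1 gave -0.27 and -0.08, neither called. NDUFAF2, a factor that acts late in assembly, gave 0.10 ± 0.09 and 0.01 ± 0.09 and was not called. The NDUFAF2 probe set may match several transcripts.

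Complex II is encoded by nuclear genes alone, and its members had the smallest shift of the 5 complexes. Of its 4 members, 1 fell from 35 to 63 dpc and 3 from 63 to 91 dpc, with medians of -0.08 and -0.28. In low-gap arrays alone the later median was -0.13. SDHA, the flavoprotein that oxidises succinate, ran from 10.86 to 11.55 at 35 dpc, from 9.95 to 10.65 at 63 dpc and from 9.94 to 10.29 at 91 dpc. The 35 dpc arrays were all above the 63 dpc arrays, and the later ages overlapped. SDHA fell by 0.69 ± 0.08 (adjusted p = 1.72e-08) and 0.24 ± 0.08 (adjusted p = 0.00893), and its dimmer probe set fell by 0.63 and 0.62. The second SDHA call was lost in low-gap arrays alone, at -0.158.

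SDHC and SDHD, the anchors that hold the enzyme in the membrane, were not called in the first interval, with differences of -0.12 and 0.09. Both fell by 0.33 in the second (adjusted p = 0.000738 and 0.00713). In low-gap arrays alone these second differences were -0.156 for SDHC and -0.112 for SDHD, and neither was called. SDHD itself was lower by 0.35 in high-gap arrays.

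SDHB, the iron-sulfur subunit, depended on the probe set. The brightest set had a lowest, median and highest value of 11.67, 11.98 and 12.11 at 35 dpc and 11.62, 11.92 and 12.06 at 63 dpc, while at 91 dpc they were 11.43, 11.75 and 12.15, with wide overlap. It gave -0.04 ± 0.07 and -0.10 ± 0.07, neither called. At 91 against 35 dpc it was called lower, at -0.15 ± 0.07 (adjusted p = 0.048), a call lost in 25 of the 32 fits that left out a single array. The dimmer set had 6.54, 6.97 and 8.59 at 35 dpc and 6.90, 8.73 and 9.94 at 63 dpc, while at 91 dpc they were 9.34, 9.89 and 10.27.

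On this dimmer set every array at 91 dpc lay above every array at 35 dpc. It rose by 1.34 ± 0.28 (adjusted p = 0.000118) and 1.32 ± 0.28 (adjusted p = 0.000147). The files do not say which of the SDHB probe sets better reports the transcript.

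Complex III was represented by 2 small subunits without a redox centre. UQCR10 ran from 12.66 to 13.13 at 35 dpc, from 11.65 to 12.32 at 63 dpc and from 10.61 to 11.39 at 91 dpc, with medians of 12.77, 12.02 and 10.92. The 3 ages did not overlap. UQCR10 fell by 0.76 ± 0.09 (adjusted p = 2.89e-08) and 1.07 ± 0.09 (adjusted p = 2.63e-11), and was 3.57-fold lower at 91 dpc than at 35 dpc.

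UQCRB, a subunit near the ubiquinone site, averaged 12.05 ± 0.24 at 35 dpc, 11.99 ± 0.24 at 63 dpc and 11.90 ± 0.36 at 91 dpc (SD). It was called in neither interval (adjusted p = 0.672 and 0.55), and its probe set may match several transcripts. The subunits of complex III with a heme or an iron-sulfur cluster are not among the members.

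In complex IV, 6 of 8 members fell from 35 to 63 dpc and 5 from 63 to 91 dpc, with medians of -0.44 and -0.35 and none higher. COX5B, a zinc-binding subunit on the matrix side, ran from 13.06 to 13.66 at 35 dpc, from 12.43 to 13.05 at 63 dpc and from 11.89 to 12.37 at 91 dpc. The ages did not overlap, though the gap between 35 and 63 dpc was narrow. COX5B fell by 0.58 ± 0.07 (adjusted p = 3.71e-08) and 0.62 ± 0.07 (adjusted p = 9.6e-09).

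COX7A1 and COX7A2 encode alternative forms of the same subunit, COX7A1 being known from heart and skeletal muscle and COX7A2 from liver and most other tissues. COX7A2 had 12.56, 12.79 and 12.92 as lowest, median and highest value at 35 dpc and 11.59, 11.98 and 12.34 at 63 dpc, while at 91 dpc they were 11.17, 11.34 and 11.53. It fell by 0.83 ± 0.07 (adjusted p = 4.03e-11) and 0.60 ± 0.07 (adjusted p = 7.72e-09), with the ages fully apart. COX7A1 had 10.05, 10.37 and 11.05 at 35 dpc and 9.51, 9.89 and 10.27 at 63 dpc, while at 91 dpc they were 9.21, 9.56 and 9.71.

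COX7A1 thus overlapped at each step and fell by 0.55 ± 0.10 (adjusted p = 3.95e-05) and 0.37 ± 0.10 (adjusted p = 0.00287). The later fall was not called in low-gap arrays alone, at -0.271. COX8H, the muscle form of another small subunit, averaged 4.67 ± 0.42, 4.32 ± 0.12 and 4.07 ± 0.29 (SD) at 35, 63 and 91 dpc. Its mean over all arrays, 4.35, was the lowest of the members and lay close to the array medians, 3.84 to 4.23. COX8H fell by 0.36 ± 0.13 in the first interval (adjusted p = 0.0202), a call that was lost without methyl array 1 at 35 dpc (-0.272). The value 4.24 recurred on arrays of every age, so this SE and p rest partly on tied values.

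The muscle markers on the array had a low mean level. Of 7 such markers, 4 passed the filter, none was called in the first interval, and ACTC1 and MYH7 fell in the second, as named after their values were seen. Their mean level ran from 3.33 to 4.43 at 35 dpc, from 3.26 to 4.17 at 63 dpc and from 3.02 to 3.77 at 91 dpc. MYH2, MYL1 and TNNT3, from skeletal muscle, averaged between 2.2 and 2.58 at every age, close to the lowest value on the arrays, 2.2. These did not pass the filter. Of the 4 that passed, CKM, DES and MYH7 lay above its cutoff on every array, and ACTC1 lay below it on 7 arrays. At 91 against 35 dpc, 3 of the 4 were called lower and none higher, with a median difference of -0.53. Of all probe sets tested, 28% were called lower in the first interval, 29% in the second and 39.1% over the whole span. The shares called higher were 32.5%, 29.5% and 40.8%. The part of the muscle markers in the COX7A1 and COX8H results was not tested.

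COX6A1, the form of its subunit found in liver and most tissues, fell by 0.47 ± 0.07 and 0.50 ± 0.07 (adjusted p = 1.87e-06 and 6.35e-07). NDUFA4, a subunit that joins complex IV late, fell by 0.41 and 0.33. Both calls were lost in low-gap arrays alone, where the differences were of like size (-0.425 and -0.321). COX6C and COX7C, both small membrane subunits, were called in neither interval. COX6C averaged 13.22 ± 0.17 at 35 dpc, 13.30 ± 0.11 at 63 dpc and 13.32 ± 0.14 at 91 dpc, and COX7C 12.54 ± 0.13, 12.54 ± 0.21 and 12.60 ± 0.30 (SD).

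In complex V, 9 of 13 members fell and 1 rose from 35 to 63 dpc, and 11 fell from 63 to 91 dpc, with medians of -0.44 and -0.36. When all probe sets of a gene were averaged, the first median was -0.29. The members of the catalytic head and its central stalk all fell in both intervals. ATP5A1 and ATP5B encode the alpha and beta subunits, which form the catalytic head. ATP5B ran from 13.37 to 14.05 at 35 dpc, from 13.08 to 13.45 at 63 dpc and from 12.79 to 13.09 at 91 dpc.

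Neighbouring ages of ATP5B overlapped slightly, while 35 and 91 dpc were fully apart. ATP5B fell by 0.44 ± 0.06 (adjusted p = 1.05e-07) and 0.36 ± 0.06 (adjusted p = 2.09e-06). ATP5A1 fell by 0.25 ± 0.08 and 0.24 ± 0.08 (adjusted p = 0.0046 and 0.00626), and the second call was lost in low-gap arrays alone, at -0.176. ATP5A1 was lower by 0.24 in high-gap arrays.

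ATP5D, the delta subunit of the central stalk, had 10.31, 10.77 and 11.63 as lowest, median and highest value at 35 dpc and 9.36, 9.86 and 10.25 at 63 dpc, while at 91 dpc they were 9.11, 9.30 and 9.45. It fell by 0.98 ± 0.12 (adjusted p = 6.41e-08) and 0.53 ± 0.12 (adjusted p = 0.000316). The 35 dpc arrays were all above the 63 dpc arrays, and the later ages overlapped. ATP5E, the epsilon subunit of the same stalk, fell by 0.29 ± 0.05 and 0.39 ± 0.05.

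The c subunit, which forms the rotating ring in the membrane, is encoded by the genes ATP5G1, ATP5G2 and ATP5G3, whose mature proteins are the same. ATP5G1 ran from 11.74 to 12.87 at 35 dpc, from 10.63 to 11.72 at 63 dpc and from 10.43 to 11.03 at 91 dpc. It fell by 0.95 ± 0.12 (adjusted p = 8.73e-08) and 0.54 ± 0.12 (adjusted p = 0.000233), the later call being lost in low-gap arrays alone (-0.380). ATP5G3 fell by 0.49 and 0.44, and ATP5G2 gave -0.09 ± 0.10 (adjusted p = 0.451) and fell by 0.35 ± 0.10 (adjusted p = 0.00271) in the second interval. That ATP5G2 call was lost in low-gap arrays alone, at -0.199. The differences between these genes were not tested.

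Of the membrane subunits e and g, ATP5I fell by 0.62 ± 0.11 in the first interval (adjusted p = 1.41e-05). Its second fall, 0.25 ± 0.11 (adjusted p = 0.0432), was lost in 11 of the 32 fits that left out a single array. ATP5L fell by 0.53 ± 0.09 and 0.60 ± 0.09 on its brightest probe set (adjusted p = 1.13e-05 and 1.7e-06), the second being the largest fall of complex V in that interval. The 2 dimmer sets for ATP5L gave 0.17 and 0.00 in the first interval and -0.07 and 0.20 in the second, and none was called.

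The peripheral stalk, which keeps the catalytic head from turning, had mixed members. Its 4 genes had median differences of 0.01 and -0.13. ATP5H, the d subunit, fell by 0.47 ± 0.07 and 0.52 ± 0.07 (adjusted p = 1.99e-06 and 3.91e-07). ATP5F1, the b subunit, gave 0.12 and -0.09 and was not called, and ATP5O, which ties the stalk to the head, was called lower in the second interval, by 0.17 ± 0.06, but not in low-gap arrays alone (-0.093).

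ATP5J, the coupling factor of the peripheral stalk, was called higher. Its lowest, median and highest values were 7.87, 8.49 and 9.19 at 35 dpc and 8.30, 8.85 and 9.14 at 63 dpc, while at 91 dpc they were 8.58, 8.88 and 9.46, with broad overlap. It rose by 0.35 ± 0.14 from 35 to 63 dpc (adjusted p = 0.028), and the later difference was 0.12 ± 0.14 (adjusted p = 0.485). The call was lost in low-gap arrays alone (0.246) and without any of 4 arrays, control arrays 3 and 4 and methyl array 1 at 35 dpc and methyl array 2 at 63 dpc, at 0.274 to 0.317.

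**Figure D3:**
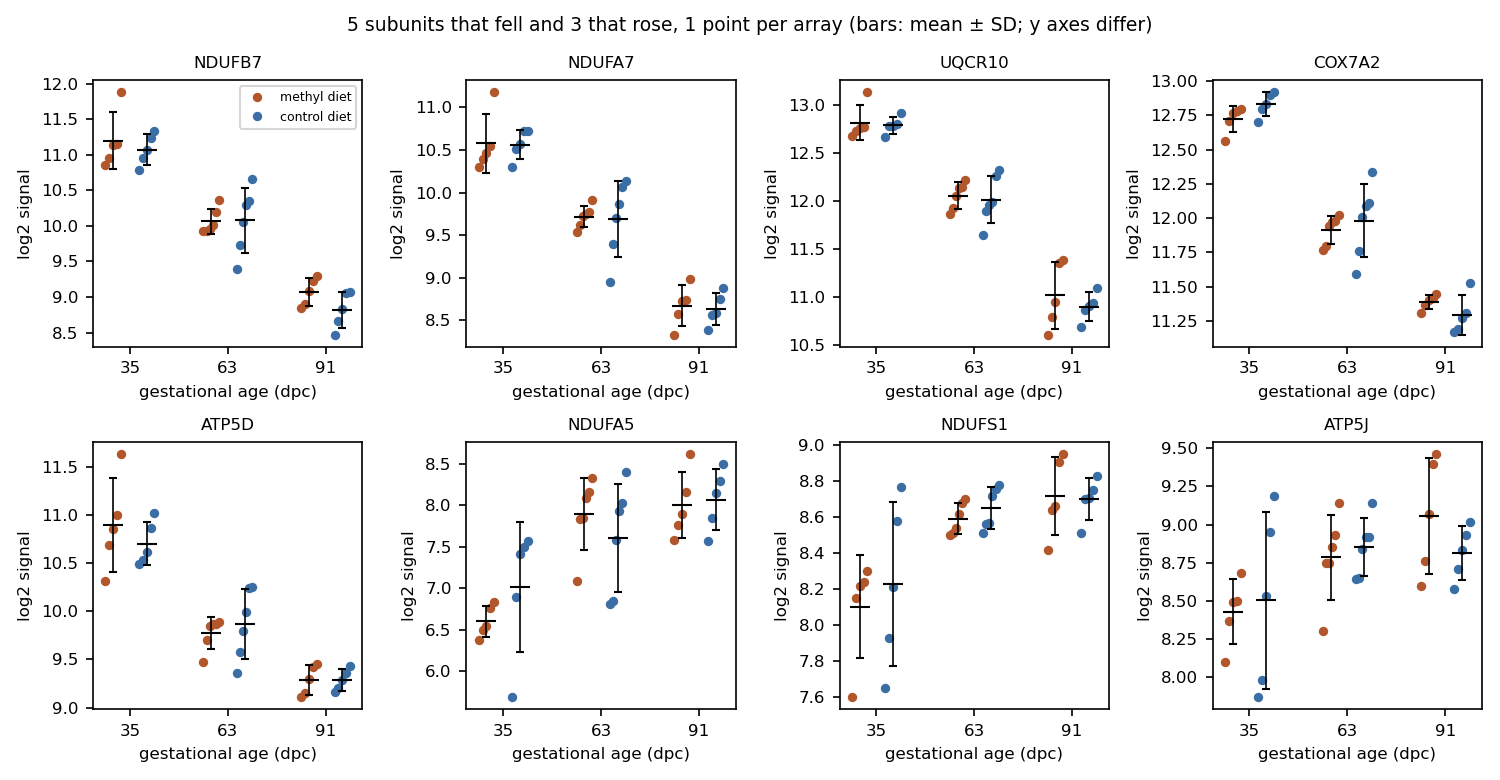
Log2 signal on each array for 5 subunits that fell (NDUFB7, NDUFA7, UQCR10, COX7A2, ATP5D) and 3 that rose (NDUFA5, NDUFS1, ATP5J), by gestational age; orange points are methyl arrays, blue points control arrays, bars give mean ± SD, and the vertical axes differ. NDUFB7 and COX7A2 show no overlap between ages, while NDUFA5 ranges from 5.69 to 7.57 at 35 dpc alone.

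ATP5S, the coupling factor that is not a subunit, also differed between probe sets. The brightest set gave 0.17 ± 0.08 (adjusted p = 0.0659) and -0.18 ± 0.08 (adjusted p = 0.0436), the second call being lost in 11 of the 32 fits that left out a single array. The dimmer set averaged 5.19 ± 0.61 at 35 dpc, 6.31 ± 0.50 at 63 dpc and 6.96 ± 0.25 at 91 dpc (SD). It rose by 1.12 ± 0.19 (adjusted p = 1.03e-05) and 0.64 ± 0.19 (adjusted p = 0.00468).

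For NDUFS3 a dimmer set averaged 8.05 ± 0.22 at 35 dpc, 6.97 ± 0.40 at 63 dpc and 5.30 ± 0.53 at 91 dpc (SD). It fell by 1.09 and 1.67, where the brightest set fell by 0.73 and 1.03. The brighter of the dimmer NDUFV2 sets fell by 0.60 and 0.77, where the brightest set fell by 0.44 and 0.50. The dimmest NDUFV2 set lay below the array's 40th percentile on 8 of 10 arrays at 91 dpc, so no size is given for its later difference. A second COX7C set lay below the 40th percentile on 10 of 10 arrays at 35 dpc, 11 of 12 at 63 dpc and 5 of 10 at 91 dpc, and gives no usable difference.

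**Figure D4:**
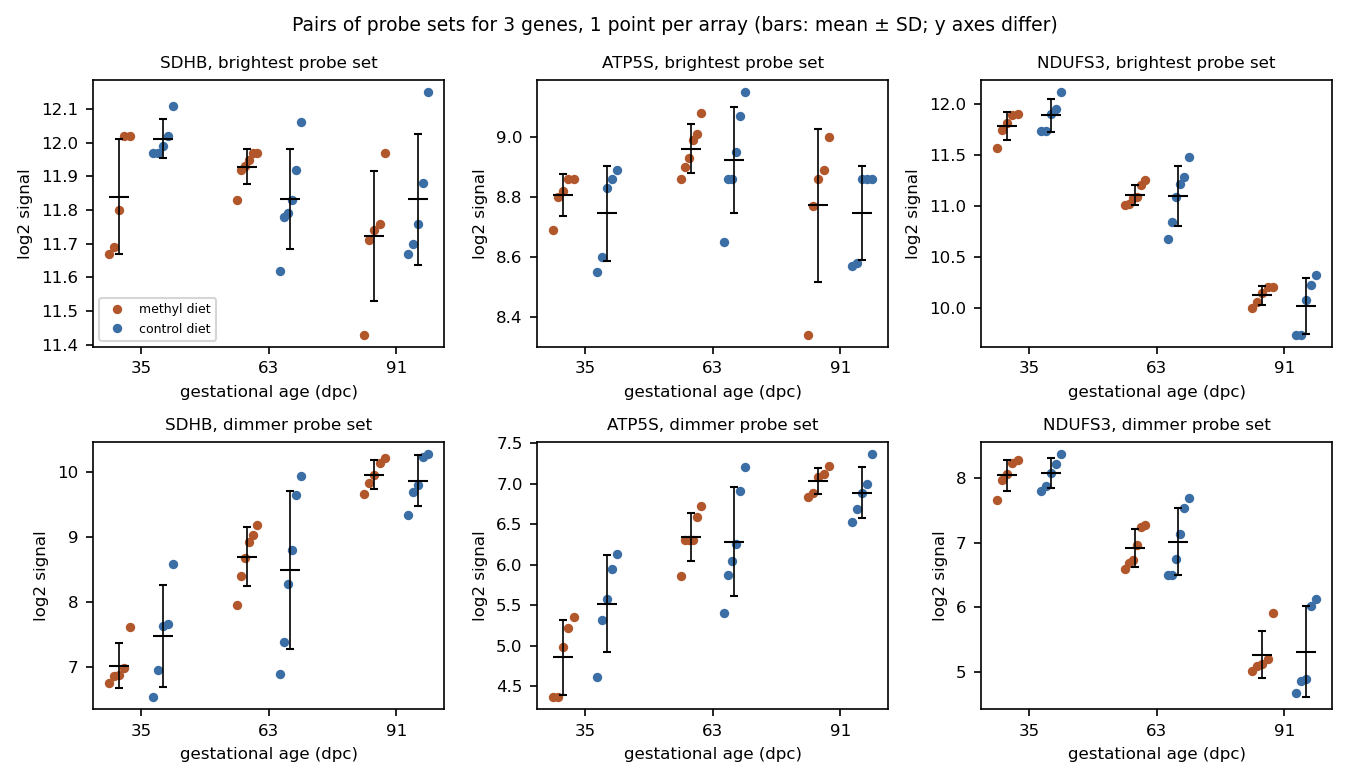
Log2 signal on each array for the brightest (top) and a dimmer (bottom) probe set of SDHB, ATP5S and NDUFS3, by gestational age; orange points are methyl arrays, blue points control arrays, bars give mean ± SD, and the vertical axes differ. The dimmer SDHB and ATP5S sets rise with age while the brightest sets do not, and both NDUFS3 sets fall.

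The comparison of diets asked whether methyl-enriched feeding of the gilts changed these transcripts in the fetal liver. None of the 63 members was called by limma at 35, 63 or 91 dpc, in the average over ages or in the interaction of diet and age. Of all probe sets tested, 0.0391% were called at 35 dpc, 0% at 63 dpc and 0.0718% at 91 dpc. The lowest adjusted p among the members was 0.6 at 35 dpc, 1 at 63 dpc and 0.76 at 91 dpc. At an unadjusted p under 0.05 there were 2 members at 35 dpc, 0 at 63 dpc and 1 at 91 dpc, where 6.09%, 1.43% and 6.52% of all probe sets passed. The median methyl minus control difference of the members was -0.04 at 35 dpc, 0.01 at 63 dpc and 0.06 at 91 dpc. The shift with age was of like size in both diets: at 91 against 35 dpc its median was -0.92 within the methyl diet and -0.94 within the control diet.

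COX6C had the smallest unadjusted p of the members. At 35 dpc its values were 13.26, 12.95, 13.18, 13.11 and 13 in methyl arrays, against 13.44, 13.24, 13.42, 13.19 and 13.42 in control arrays. Methyl arrays tended to lie below control arrays, but 1 methyl array lay above the 2 lowest control arrays. The difference was -0.24 ± 0.08 (unadjusted p = 0.00564, adjusted p = 0.6). At 63 dpc COX6C averaged 13.30 ± 0.12 in methyl and 13.29 ± 0.12 in control arrays, and at 91 dpc 13.40 ± 0.16 in methyl and 13.25 ± 0.06 in control arrays (SD). Its interaction of diet and age had an adjusted p of 0.989.

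COX7C had every methyl array below every control array at 35 dpc, as did 0.163% of all probe sets. Its values there were 12.42, 12.39, 12.43, 12.54 and 12.36 in methyl arrays, against 12.58, 12.69, 12.69, 12.65 and 12.60 in control arrays. The difference was -0.22 ± 0.13 (adjusted p = 0.903). At 63 dpc COX7C averaged 12.44 ± 0.25 in methyl and 12.65 ± 0.09 in control arrays (SD), a difference of -0.20 ± 0.12 with overlap, and the smallest p of the members at that age (unadjusted p = 0.105, adjusted p = 1). At 91 dpc its difference was 0.05 ± 0.13.

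The other members with the smallest p were likewise not called. NDUFC1 at 35 dpc averaged 10 ± 0.09 in methyl and 10.24 ± 0.18 in control arrays, a difference of -0.23 ± 0.11 (adjusted p = 0.805), and ATP5B there gave -0.16 ± 0.08 (adjusted p = 0.845). At 63 dpc, after COX7C, NDUFAF1 gave -0.22 ± 0.15 and SDHC 0.15 ± 0.11. NDUFB5, an accessory subunit of the membrane arm, averaged 10.44 ± 0.16 in methyl and 10.22 ± 0.13 in control arrays at 91 dpc, a difference of 0.21 ± 0.10 (adjusted p = 0.76). SDHC had the smallest p in the average over ages, at 0.16 ± 0.07 (adjusted p = 0.999), followed by NDUFAF1 at -0.17 and COX7C at -0.12. At 91 dpc COX6C and NDUFA1 came next after NDUFB5, with adjusted p = 0.818 and 0.934. In the interaction NDUFB5 and ATP5F1 followed COX6C, with an adjusted p of 1 for both. At an unadjusted p under 0.05 lay 4.47% of all probe sets in the average over ages and 4.31% in the interaction.

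**Figure D5:**
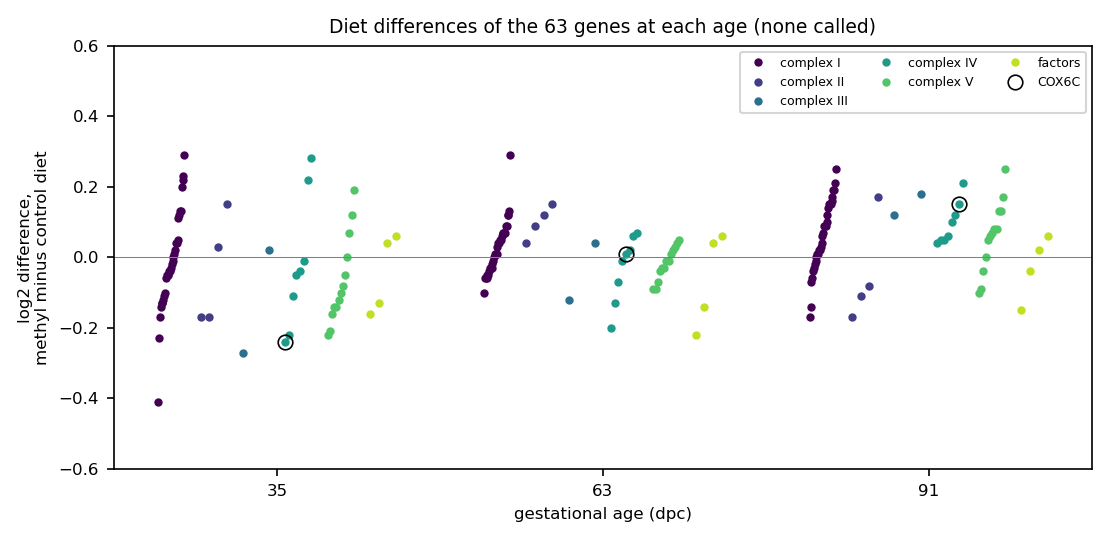
Methyl minus control difference (log2) of each of the 63 genes at 35, 63 and 91 dpc, coloured by complex, with COX6C ringed. The points scatter around 0 at every age, with medians of -0.04, 0.01 and 0.06, and COX6C lies at -0.24, 0.01 and 0.15.

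Other genes of mitochondrial energy metabolism were examined as lists. Beside the counts of these lists and of the cell type markers stand the shares over all probe sets tested. From 35 to 63 dpc 28% were called lower and 32.5% higher, and from 63 to 91 dpc 29% and 29.5%. The genes named are a few of each list and need not go the way of its others. Assembly factors of the respiratory chain and ATP synthase fell in 9 of 16 tested genes and rose in 1 from 35 to 63 dpc (median -0.42), and fell in 8 from 63 to 91 dpc (median -0.34). BCS1L, which inserts the iron-sulfur protein into complex III, fell by 1.32 and 0.86. TACO1, needed to translate a subunit of complex IV, fell by 1.14 and 0.88, and ACAD9, a complex I assembly factor, by 0.91 in each interval.

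In the citric acid cycle and pyruvate dehydrogenase, 8 of 16 genes fell and 4 rose in each interval, with medians of -0.18 and -0.29. The genes named next all fell, and those that rose are not named. IDH2, the mitochondrial NADP-linked isocitrate dehydrogenase, fell by 0.85 and 0.72. DLST, a component of the 2-oxoglutarate dehydrogenase complex, fell by 0.91 and 0.81, and IDH3B, a subunit of the NAD-linked isocitrate dehydrogenase, by 0.81 and 0.55.

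Protein import and inner membrane structure had 11 of 19 genes lower and 3 higher in the first interval (median -0.35), and 13 lower and 1 higher in the second (median -0.38). TOMM22, a receptor of the outer membrane import pore, fell by 0.75 and 0.95. TIMM10 and TIMM8B, small chaperones between the membranes, fell by 0.94 and 0.84 and by 0.70 and 0.67. Among carriers and pores, 6 of 13 fell and 1 rose in the first interval (median -0.22), and 8 fell and 1 rose in the second (median -0.41). VDAC3, an outer membrane pore, was called in the second interval, with a fall of 1.18, and the carnitine carrier SLC25A20 fell by 0.92 and 0.68. UCP2, an inner membrane carrier, fell by 0.66 and 2.29.

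Genes that feed electrons to ubiquinone by other routes had 2 of 5 higher and 1 lower in the first interval, and 1 each way in the second. SQOR, which oxidises sulfide, rose by 2.22 from 35 to 63 dpc. ETFA and ETFB, partners in the electron transfer flavoprotein of fatty acid oxidation, moved apart: ETFA rose by 0.97 and 0.61, and ETFB fell by 0.56 and 0.59.

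Regulators of mitochondrial gene expression and biogenesis were split as well, with 3 of 5 higher and 2 lower in the first interval, and 2 higher and 2 lower in the second. PPARGC1A, a coactivator of energy metabolism, averaged 2.69 at 35 dpc, 4.12 at 63 dpc and 6.50 at 91 dpc and was called higher in both intervals. It lay below the 40th percentile on 8 of the 32 arrays, and its mean at 35 dpc was under the lowest such percentile, 2.74, so no size is given for the first rise. The second was 2.37 ± 0.17 (adjusted p = 2.41e-12). PPRC1, a related coactivator, fell by 0.51 and 1, and TFB1M, a mitochondrial ribosomal RNA methyltransferase, fell by 0.97 and 0.39. TFAM, the packaging and transcription factor of mitochondrial DNA, rose by 1.04 and 1.19, and the transcription factor YY1 rose by 0.80 in the first interval; both were named after their values were seen.

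Markers of other cell types moved over the same ages. Of 8 erythroid markers, 6 fell and 1 rose in each interval, with medians of -0.64 and -1.80. Their mean level ran from 10.52 to 11.34 at 35 dpc, from 10.06 to 10.86 at 63 dpc and from 8.04 to 9.38 at 91 dpc. KLF1, a red cell transcription factor, fell by 1.27 and 2.23, and EPOR, the erythropoietin receptor, by 0.93 and 2.38. HBE1, an embryonic globin, fell by 1.56 in the first interval and fell by 4.08 in the second. The part of this erythroid shift in the falls of the respiratory chain members was not tested.

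Hepatocyte markers stood for the labelled tissue and were high on every array, with a mean level from 14.17 to 14.84 at 35 dpc, from 14.93 to 15.36 at 63 dpc and from 15.36 to 15.55 at 91 dpc. Of 9 such markers, 4 rose and none fell in the first interval, and 3 rose and 3 fell in the second. Their median differences were 0.11 and 0.04. At 91 against 35 dpc 4 of the 9 were higher and 3 lower, where 40.8% and 39.1% of all probe sets were. ALB, serum albumin, rose by 3.37 and 0.56, well above these medians. Macrophage markers averaged 6.95 ± 0.25, 7.5 ± 0.12 and 8.56 ± 0.12 (SD) at 35, 63 and 91 dpc, and neutrophil markers 8.26 ± 0.43, 9.14 ± 0.33 and 7.55 ± 0.37. All 5 neutrophil markers rose in the first interval and fell in the second. Of 3 endothelial markers tested, 1 rose in the first interval, and 1 rose and 1 fell in the second. Both stellate and fibroblast markers tested fell in the first interval and 1 rose in the second, and the cholangiocyte marker tested fell and then rose. The part of these cell types in the respiratory chain results was not tested either.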

How the data were processed

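The authors' deposited values are log2 signals, 1 per probe set and array. The submitters' processing notes list GCOS 1.1.1 but not what it did, and the scaling between arrays is not given in the sources used here, so the values were used as deposited. After 124 control probe sets were set aside, 15327 probe sets above the array's 40th percentile in at least 5 arrays were tested. The platform's annotation gave 10099 probe sets a single symbol, 198 several and 13826 none. All 63 members matched a RefSeq gene by Entrez ID. Genome positions are not given, since the files name no build.

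Fitting used limma 3.58.1 under R 4.3.3, and files were read by the data.table package at version 1.17.8. The model held 6 group means with an intensity trend (26 residual degrees of freedom). Contrasts were later minus earlier age averaged over diets, methyl minus control at each age and on average, and the interaction. P-values were adjusted by Benjamini-Hochberg over all probe sets tested. The fit was tested on simulated data. Complexes and lists are described by counts and medians, with no test.

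Named in the text are, for each complex and interval, the 2 called members with the largest falls and the 2 with the largest rises, members called against their complex's majority, catalytic subunits, isoform pairs, non-subunits, the 3 smallest p of each diet contrast, genes whose probe sets differ in sign, and up to 3 genes of each list. Further members were named after their values were seen. The members and lists were chosen with earlier results of these data known. Alternatives were no trend, no filter, a filter at the 60th percentile, quantile normalization, the gap group as a block, each gap group alone, array weights, each gene's probe sets averaged, and each array left out in turn. Replicate numbers follow the order of deposit and pair nothing.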

Additional observations from a re-analysis of the deposited data

Results flagged for a closer look

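Single arrays stood apart from the rest of their group of diet and age in 19 of 378 groups of member values and in 2 of 36 groups of complex means, by Dixon's criterion. Chance gives about 1 in 20 groups. Methyl array 1 at 35 dpc was high in ATP5G1 at 12.87 (the others 11.94 to 12.11), NDUFA2 at 11.51 (10.95 to 11.06), NDUFA7 at 11.18 (10.30 to 10.55), NDUFB11 at 11.06 (10.21 to 10.42) and UQCR10 at 13.13 (12.67 to 12.77), and low in NDUFS1 at 7.60 (8.15 to 8.30).

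At 35 dpc, methyl array 5 was low in NDUFB4 at 11.80 (12.26 to 12.41), in the complex II mean at -0.02 (0.21 to 0.29) and in the complex V mean at 0.08 (0.36 to 0.43). Methyl array 2 was low in UQCRB at 11.60 (11.94 to 12.05), and control array 2 was low in NDUFB1 at 11.80 (12.12 to 12.25). At 63 dpc, methyl array 6 was high in ATP5I at 8.36 (7.67 to 7.91). Control array 2 was high in ATP5I at 8.38 (7.61 to 7.85) and in ATP5A1 at 13.50 (13.10 to 13.24).

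At 91 dpc, methyl array 2 was high in NDUFA9 at 9.56 (9.13 to 9.20), and methyl array 5 was high in NDUFA3 at 9.45 (9.04 to 9.14). Methyl array 3 was low in NDUFB10 at 9.69 (10.39 to 10.60) and in COX8H at 3.53 (4.24 to 4.24), and methyl array 4 was low in NDUFA12 at 9.76 (10.30 to 10.39). The other COX8H arrays of that group shared the value 4.24, so almost any differing value would stand apart by this criterion. Control array 2 was high in NDUFA8 at 10.05 (9.57 to 9.66) and low in NDUFB1 at 10.49 (10.74 to 10.83).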

How the results depend on the processing

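No diet difference of a member was called under any of the alternatives run. Without 1 array in turn, the members higher at 63 than at 35 dpc numbered 2 to 5 (5 without control array 1 at 35 dpc) and those higher at 91 than at 63 dpc 0 to 1. In low-gap arrays alone, 0 members were higher from 35 to 63 dpc, 0 higher and 28 lower from 63 to 91 dpc, and 2 higher at 91 against 35 dpc; the complex II median from 63 to 91 dpc was -0.13, and the complex I median at 91 against 35 dpc was -1.05, or -1.36 in high-gap arrays. Array weights gave 2 higher from 63 to 91 dpc. Quantile normalization gave a complex V median of -0.54 from 35 to 63 dpc and moved the median of all probe sets to -0.15 at 91 against 35 dpc, where the members' median was -0.98. With each gene's probe sets averaged, 5, 3 and 7 members were higher in the intervals 63 against 35, 91 against 63 and 91 against 35 dpc, and the complex V median was -0.29 in the first and -0.57 in the last; SDHB became 0.65, 0.61 and 1.26 in these intervals, and ATP5S 0.23 and 0.88 in the last 2. That alternative mixes in the dimmer probe sets, and fits on 1 gap group use fewer arrays. The share of all probe sets called under each alternative is not given, so these counts of members cannot be set against it. The cause of the other moves was not tested. No paired analysis was possible because the replicate numbers only follow the order of deposit. Dim probe sets such as that of COX8H limit what could be seen.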

Other observations

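Probe sets annotated with more than 1 symbol, or with a symbol given more than once, were left out of the members. A set named for ZBTB32 and COX6B, the second a subunit of complex IV, averaged 11.80 at 35 dpc, 11.06 at 63 dpc and 10.52 at 91 dpc, and fell by 0.75 and 0.54 (limma adjusted p = 6.16e-09 and 1.01e-06). A set for ATP5SL averaged 6.39, 5.55 and 4.39 at these ages and fell by 0.85 and 1.15. Both sets named for PRKD3 and NDUFAF7, the second a complex I assembly factor, rose in both intervals, by 0.39 and 1.29 and by 0.54 and 0.99.

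The spread between arrays of a group differed among the members. The pooled SD was lowest at 0.12, had a median of 0.21 and was highest at 0.60, in NDUFS6. On NDUFS6 the high-gap arrays were lower by 0.90, and on NDUFS7 by 0.48.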
